A study of Mus musculus with 23 samples.

Results

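The Notch genes described here are 3 receptors (Notch1, Notch2, Notch3), 3 ligands (Dll1, Dll3, Jag1) and 4 Hes and Hey target genes (Hes1, Hes5, Hey1, Hey2). They were chosen by name, as the rows of the mouse count tables whose gene symbol is one of the 10, and all 10 were found among 39017 rows. RNA was measured in 23 mouse libraries in 8 groups. Embryonic cortex of C57BL/6 mice received genes by in utero electroporation with a piggyBac transposon, which inserts its cargo into the genome, and GFP-positive cells were sorted and expanded. The 15 preneoplastic libraries were taken 72 h after delivery and the 8 tumour libraries at 5 to 9 months.

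EV ctl (n = 2) is wild type and received an empty vector, and EV-PDGFRA (n = 3) overexpresses Pdgfra, a receptor tyrosine kinase. WT-AP (n = 4) overexpresses wild-type histone H3.3, carries a CRISPR/Cas9 loss of Trp53 and expresses a short hairpin RNA against Atrx. K27M-AP (n = 4) has the same Trp53 loss and Atrx hairpin but overexpresses H3.3 with lysine 27 replaced by methionine. K27M-APP (n = 2) adds Pdgfra overexpression to K27M-AP. K27M-AP T (n = 3) and K27M-APP T (n = 4) are tumours of these 2 genotypes, and K27M-P T (n = 1) is a tumour with the mutant histone and Trp53 loss but no Atrx hairpin. The cells were expanded after sorting, so the profiles are those of expanded cells. The labels do not say whether libraries of a group came from separate animals, so every p-value here measures only the spread between these libraries.

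Notch signalling works between touching cells: a Delta or Jagged ligand on one cell binds a Notch receptor on its neighbour, the receptor is cleaved, and its intracellular domain enters the nucleus and joins the DNA-binding protein Rbpj. Hes and Hey genes are switched on by this complex and encode repressors of proneural genes. In the embryonic cortex the pathway is known for keeping neural progenitors undifferentiated.

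Rbpj recognises a core that is commonly written GTGGGAA. Stretches upstream of 8 of the 10 genes were in the RefSeq promoter table of GRCm38.p6, as 9 entries, and the 250 bases before each start were searched for these letters on both strands. Hes5 and Hey2 were the members with a match, and their stretches are printed because these are target genes and among the most variable members below. Capitals mark GTGGGAA or its reverse complement TTCCCAC, and each sequence runs 5′ to 3′ towards the gene start. The Hes5 stretch is chr4:154960673-154960922 on the plus strand and held 2 matches. The Hey2 stretch is chr10:30842784-30843033 on the minus strand and held 1 match.
Hes5: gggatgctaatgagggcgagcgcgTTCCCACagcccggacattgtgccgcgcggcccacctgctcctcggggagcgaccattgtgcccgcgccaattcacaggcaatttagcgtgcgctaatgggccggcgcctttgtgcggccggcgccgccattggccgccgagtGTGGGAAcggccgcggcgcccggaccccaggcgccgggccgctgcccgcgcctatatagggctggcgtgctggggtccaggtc
Hey2: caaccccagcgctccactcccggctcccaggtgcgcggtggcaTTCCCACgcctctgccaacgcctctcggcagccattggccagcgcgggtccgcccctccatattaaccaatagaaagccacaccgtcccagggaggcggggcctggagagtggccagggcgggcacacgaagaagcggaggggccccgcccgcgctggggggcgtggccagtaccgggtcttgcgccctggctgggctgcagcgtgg
Of 32851 stretches of this length in the table, 5.42% held at least 1 match and 0.161% held at least 2. A match describes the letters and is not evidence of binding. Hes1 and Hey1 had no entry in the table.

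Total counts per library ran from 37300947 to 68642582, so all members but Hey2 were counted deeply: their lowest count in any library was 126, for Dll3. Levels are in CPM, counts relative to the scaled total count of the library. Notch1, Notch2, Notch3, Dll1 and Hes5 share exonic bases with other annotated genes. For Notch2 that neighbour lies on the same strand. For the others it lies on the opposite strand, and the strand setting of the counting is not given in the sources used here. Reads of such neighbours could therefore not be told apart. Each of 12 neural progenitor markers reached 1 CPM in some library, and Vim, the most abundant, stood at 731 to 9986 CPM. Cdh5, Tek, Cldn5 and Esam of the 10 endothelial markers and 8 of the 10 microglia and macrophage markers stayed below 1 CPM in every library. Kdr, the most abundant endothelial marker, ran from 1.16 to 16.8 CPM, and the endothelial sum from 3.31 to 42.9 CPM. Libraries 5 of EV ctl and 4 of K27M-AP stood apart: their summed levels of 10 proliferation genes were 459 and 165 CPM, whereas the highest sum was 3720 CPM. K27M-AP library 4 also had the highest summed level of 8 astrocyte markers (2852 CPM, lowest library 261 CPM), of 12 neuron markers (1440 CPM, lowest 318 CPM), of the oligodendrocyte precursor markers (5379 CPM, lowest 1377 CPM) and of 9 pericyte and smooth muscle markers (84.5 CPM, lowest 2.35 CPM), and the lowest summed level of the neural progenitor markers (3697 CPM, highest 12305 CPM). Of the progenitor sum, Vim made up 731 CPM in that library and 9986 CPM in the highest one, K27M-AP T library 4. Nes stood at 97.2 and 609 CPM in these libraries, and Sox2 at 424 and 284 CPM. In bulk RNA, fewer cells of a type and less RNA per cell cannot be told apart.

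Levels per kilobase of exon (CPM per kb) allow the members to be ordered. Over the 23 libraries Hes5 had the highest median at 63.7 CPM per kb, followed by Notch1 at 25.9, Dll1 at 25.3 and Hes1 at 23.9 CPM per kb. Dll3 (13.7 CPM per kb), Hey1 (12.9 CPM per kb) and Notch2 (11.3 CPM per kb) came next, then Jag1 (8.25 CPM per kb) and Notch3 (6.27 CPM per kb). Hey2 was the lowest at 0.224 CPM per kb, and its lowest count was 6. The ranges of neighbours in this order overlapped: Hes5 ran from 7.48 to 289 CPM per kb, Notch1 from 16.8 to 68.7 CPM per kb and Hes1 from 5.66 to 37.8 CPM per kb. Hey2 was the exception, since its highest level of 1.28 CPM per kb overlapped with the range of Dll3 (1.16 CPM per kb at the lowest) and lay below the lowest level of the other 8 members.

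**Figure D1:**
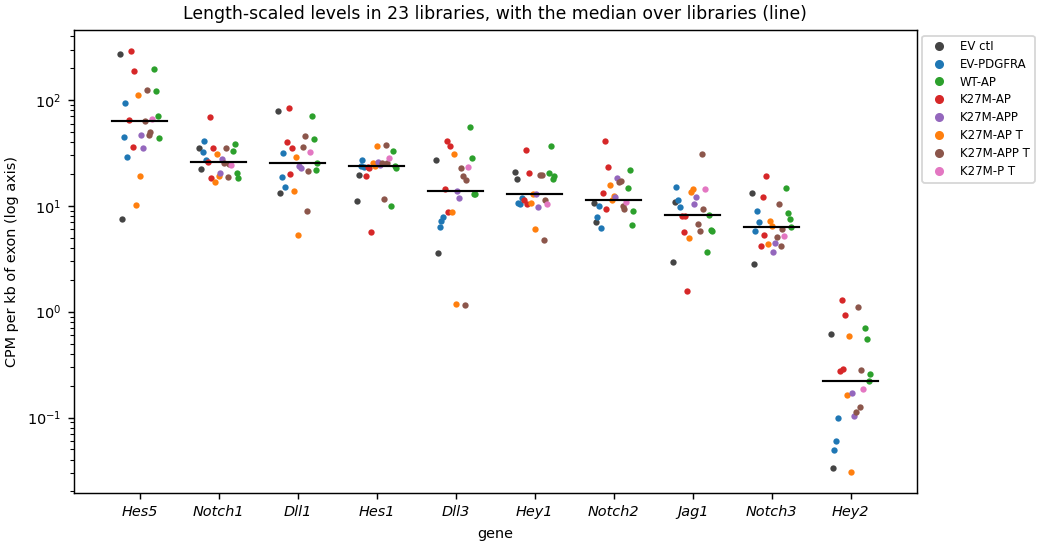
Levels of the 10 Notch genes in CPM per kb of exon on a log axis, 1 point per library coloured by group, with the median over 23 libraries as a line. Hes5 has the highest median (63.7 CPM per kb) and one of the widest spreads, and Hey2 the lowest median (0.224 CPM per kb).

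Of the receptors, Notch1 (chr2:26457903-26516663) varied least, from 240 CPM in K27M-AP T library 1 to 977 CPM in K27M-AP library 2. Group means were 409 ± 125 (SD) CPM in EV ctl, 477 ± 104 CPM in EV-PDGFRA, 393 ± 136 CPM in WT-AP, 527 ± 316 CPM in K27M-AP and 343 ± 78.0 CPM in K27M-APP. The tumour means were 316 ± 105 CPM in K27M-AP T and 374 ± 98.7 CPM in K27M-APP T, and the K27M-P T library stood at 346 CPM. All these group ranges overlapped, and the mean of K27M-AP was raised by a single library. Without library 2 of K27M-AP the highest Notch1 level in that group was 503 CPM.

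Notch2 (chr3:98013527-98150361), the other widely expressed receptor of neural progenitors, had its highest level, 443 CPM, in the same K27M-AP library 2. The other K27M-AP libraries stood at 144, 101 and 253 CPM. EV-PDGFRA stood at 84.5, 107 and 66.2 CPM, the last being the lowest of the 23 libraries, and did not overlap with K27M-APP at 130 and 199 CPM. Notch3 (chr17:32120820-32166852), a receptor best known from pericytes and smooth muscle and also made by neural progenitors, ran from 23.01 CPM in EV ctl library 5 to 154 CPM in K27M-AP library 4. That highest library is the one with the highest summed pericyte markers, and Pdgfrb made up 80.1 of the 84.5 CPM there. Acta2 stood at 1.43 CPM in that library, against 44.1 CPM in its highest library, and Kcnj8 at 0.0433 CPM, against 45.7 CPM in K27M-APP T library 3, while Vtn, Anpep and Myh11 were below 1 CPM in all libraries. The part of other cells in this Notch3 level was not tested. Across the other K27M-AP libraries Notch3 stood at 33.5, 97.7 and 42.8 CPM.

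The ligand Dll1 (chr17:15367354-15376872), a Delta ligand that activates receptors on neighbouring cells, differed widely between libraries of 1 group. EV ctl stood at 333 and 55.5 CPM, EV-PDGFRA at 79.1, 134 and 63.7 CPM, and WT-AP at 295, 182, 92.0 and 107 CPM. K27M-AP stood at 168, 357, 84.7 and 148 CPM and K27M-APP at 101 and 96.0 CPM. The gap between the EV ctl libraries was thus wider than that between the lowest and highest group means, 67.6 CPM in K27M-AP T and 194 CPM in EV ctl. Among tumours, K27M-AP T stood at 57.9, 122 and 22.6 CPM, K27M-APP T at 151, 195, 37.4 and 89.8 CPM, and K27M-P T at 137 CPM.

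Dll3 (chr7:28293553-28302238), a divergent Delta-like protein known for inhibiting Notch signalling within the cell that makes it, had the widest range of all members relative to its lowest level, 48.1-fold. It was highest in WT-AP library 1 at 159 CPM and lowest in K27M-APP T library 3 at 3.31 CPM and K27M-AP T library 4 at 3.34 CPM. The other tumours held 24.8 and 87.6 CPM in K27M-AP T, 64.6, 54.0 and 49.9 CPM in K27M-APP T and 65.7 CPM in K27M-P T. So 1 tumour of each genotype had little Dll3 while the rest overlapped with the preneoplastic libraries, where Dll3 ran from 10.2 CPM upwards.

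Jag1 (chr2:137081456-137116644), a Jagged ligand, followed a different order of libraries. It was lowest in K27M-AP library 4 at 9.06 CPM, EV ctl library 4 at 17.0 CPM and WT-AP library 1 at 21.3 CPM, libraries in which Dll3 and Hes5 were among the higher ones. EV-PDGFRA stood at 88.7, 66.4 and 57.1 CPM and K27M-APP at 60.4 and 70.3 CPM. WT-AP stood at 21.3, 48.1, 34.6 and 33.4 CPM and K27M-AP at 47.2, 32.8, 46.5 and 9.06 CPM. EV ctl held 17.0 and 64.0 CPM, and neither EV-PDGFRA nor K27M-APP separated from it. Its highest level, 180 CPM, was in K27M-APP T library 3, the others of that group lying at 39.4, 33.7 and 54.6 CPM.

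Among the targets, Hes1 (chr16:30064384-30067796) and Hes5 (chr4:154960923-154962371) encode related repressors that act together in cortical progenitors, and here they did not move together. Hes5 had the larger swings, with 372 and 10.2 CPM in the EV ctl libraries, a 36.5-fold difference within 1 group. WT-AP held 268, 165, 95.5 and 59.5 CPM of Hes5 and K27M-AP 88.9, 394, 48.8 and 254 CPM. EV-PDGFRA (61.5, 128 and 39.8 CPM) and K27M-APP (63.5 and 48.3 CPM) lay inside the EV ctl and K27M-AP spans or at their lower edge. In tumours Hes5 stood at 14.0, 153 and 26.2 CPM in K27M-AP T, 86.9, 171, 64.1 and 67.8 CPM in K27M-APP T and 89.4 CPM in K27M-P T.

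Hes1 spanned a smaller range, from 11.5 CPM in K27M-AP library 4 to 77.05 CPM in K27M-APP T library 3. Most libraries lay close to the median of 48.7 CPM, and the low ones were K27M-AP library 4, WT-AP library 1 (20.2 CPM), EV ctl library 4 (22.8 CPM) and K27M-APP T library 2 (23.7 CPM). These same 4 libraries had Hes5 at 254, 268, 372 and 171 CPM. The ratio of Hes5 to Hes1, both per kb, therefore ran from 0.382 in EV ctl library 5 to 33.0 in K27M-AP library 4. It was above 10 in 5 libraries: the 4 low in Hes1, at 10.8 to 33.0, and K27M-AP library 2, at 12.4, where Hes1 was 47.3 CPM.

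Hey1 (chr3:8663359-8667256) and Hey2 (chr10:30832359-30842801) encode Hes-related repressors. Hey1 was tight in EV-PDGFRA at 34.8, 33.7 and 38.4 CPM, below both EV ctl libraries at 68.7 and 58.0 CPM. WT-AP held 67.0, 120, 58.1 and 62.6 CPM and K27M-AP 36.9, 109, 33.8 and 66.8 CPM, so the K27M-AP libraries fell into a low and a high pair. K27M-APP held 42.1 and 31.7 CPM of Hey1. Hey2 was near its detection limit in several libraries, with 0.225, 0.276 and 0.455 CPM in EV-PDGFRA, 0.152 CPM in EV ctl library 5 and 0.141 CPM in K27M-AP T library 4. It reached 5.88 CPM in K27M-AP library 2, 5.03 CPM in K27M-APP T library 2 and 4.29 CPM in K27M-AP library 4.

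**Figure D2:**
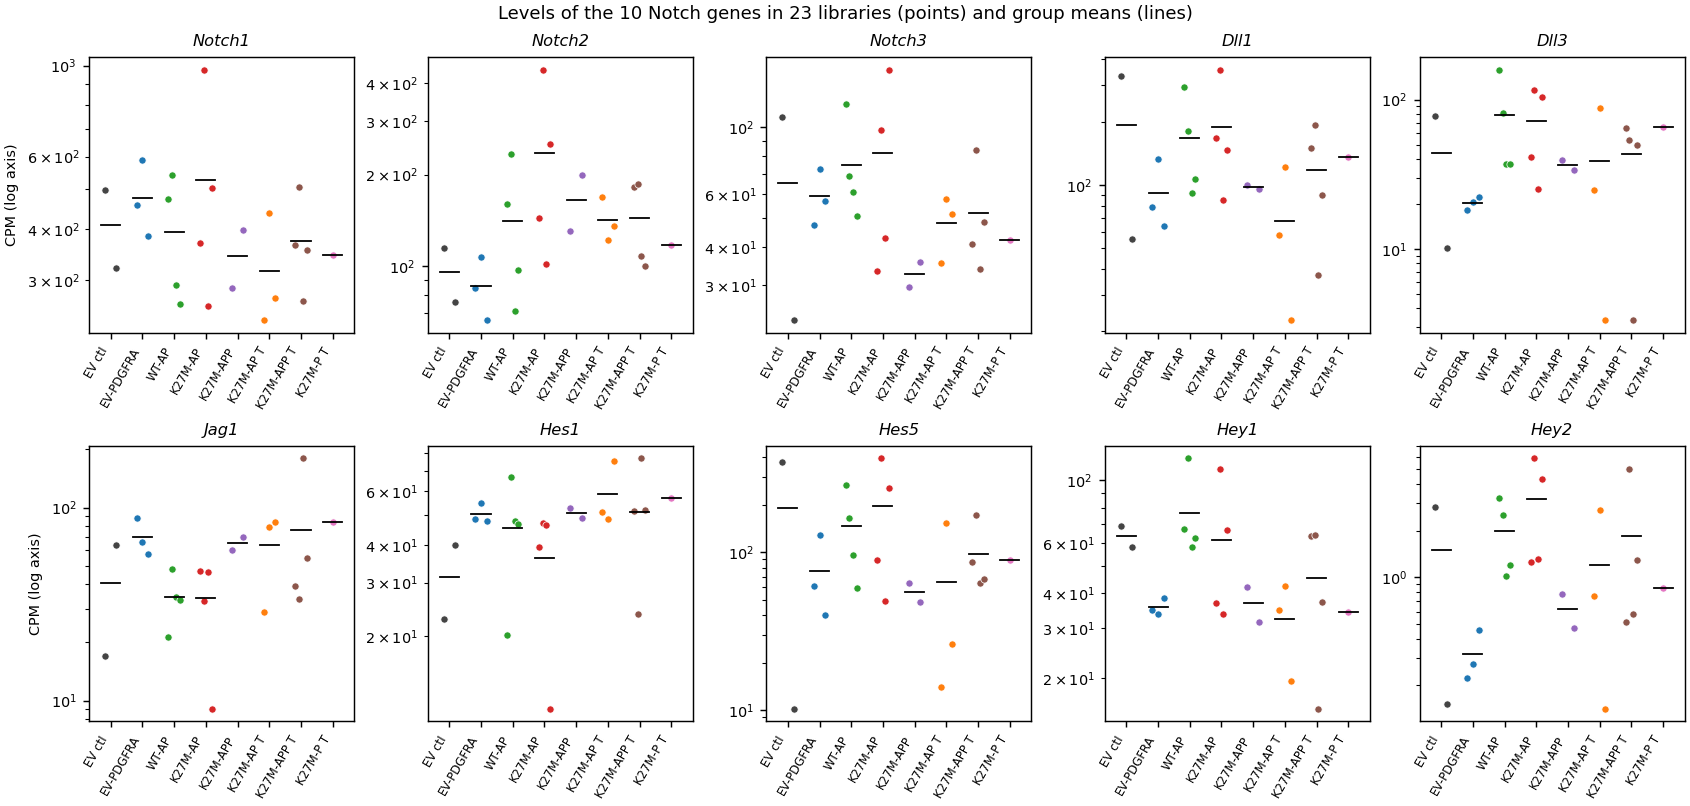
Levels of the 10 Notch genes in CPM on log axes, 1 panel per gene and 1 point per library, with the group mean as a line. In EV ctl, Hes5 stands at 372 and 10.2 CPM and Jag1 at 17.0 and 64.0 CPM, in opposite order.

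In 8 comparisons of groups, none of the 10 members passed the test, an adjusted p below 0.05 by edgeR's quasi-likelihood test with Benjamini-Hochberg adjustment over all genes tested. DESeq2 also called 0 of the 10 in each. Of the 80 member tests 3 had an unadjusted p below 0.05: Hey2 for EV-PDGFRA against EV ctl, Hey2 for K27M-APP against K27M-AP, and Dll1 for K27M-AP T against K27M-AP. That made 1 of 10 members in each, where 7.03%, 5.94% and 12.2% of all genes had such a p. Over the 8 comparisons the all-gene count ran from 543 of 20373 (K27M-APP T against K27M-AP T) to 3133 of 20197 (K27M-APP against EV-PDGFRA). Calls were few across all genes too, as given below, and the adjusted p of a member depends on them.

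Adding wild-type H3.3, Trp53 loss and the Atrx hairpin to control cells (WT-AP against EV ctl) gave 0 member calls, where 0.312% of 20197 genes were called. Members had a median log2 fold change of 0.25 (all genes 0.00), with 6 of 10 positive (49.8% of all genes). Of them 0 separated the groups, against 20.1% of all genes. The largest was Dll3 at 0.85 (SE 0.80, edgeR adjusted p 0.744). These values turn on which EV ctl library is used: without the libraries low in proliferation genes, EV ctl library 5 and K27M-AP library 4, Jag1 was 1.02 higher in WT-AP on the log2 scale in place of -0.23. Without EV ctl library 4 the Hes5 value was 3.86 in place of -0.37.

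Pdgfra overexpression alone (EV-PDGFRA against EV ctl) also gave 0 member calls, where 0% of 20197 genes were called (7.03% had an unadjusted p below 0.05, and DESeq2 called 101 genes). Of the members, 3 of 10 were positive (49.0% of all genes), with a median log2 fold change of -0.46 (all genes -0.01). Hes1 was higher and Hey1 lower in every EV-PDGFRA library than in both EV ctl libraries, and 23.6% of all genes separated the groups in this way. Hey2 averaged 0.318 ± 0.121 (SD, n = 3) CPM against 1.49 ± 1.89 CPM (n = 2), a log2 fold change of -2.19 (SE 0.95) with an edgeR adjusted p of 0.699. That direction rests on EV ctl library 4: without it Hey2 was at 1.08, Hes5 at 2.94, Dll3 at 1.03, Dll1 at 0.76, Notch3 at 1.39 and Notch2 at 0.20 on the log2 scale, all opposite in sign to the values with both libraries, while Hey1 stayed at -0.67. The single remaining EV ctl library is then assumed to vary like the other groups. Hey1 averaged 35.6 ± 2.47 CPM (n = 3) against 63.3 ± 7.55 CPM (n = 2), a log2 fold change of -0.80 (SE 0.43, edgeR adjusted p 0.713).

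Pdgfra overexpression on the K27M-AP background (K27M-APP against K27M-AP) again gave 0 member calls and 0% of all genes called (5.94% at an unadjusted p below 0.05, and 6 genes by DESeq2). Of the members 2 of 10 were positive, where 47.3% of all genes were, and their median was -0.82 on the log2 scale against -0.03. The members vary together between libraries, as given below, so their signs are not separate observations. Jag1 and Hes1 were the 2 positive members, at 0.96 (SE 0.56) and 0.52 (SE 0.49), and both separated the groups, as Hey2 did in the other direction; 19% of all genes separated them. Hey2 averaged 0.6251 ± 0.214 CPM in K27M-APP (n = 2) against 3.19 ± 2.29 CPM in K27M-AP (n = 4), a log2 fold change of -2.31 (SE 0.99, edgeR adjusted p 0.667). Without K27M-AP library 4, which stands apart in its markers, Hey2 was at -2.13, Jag1 at 0.65 and Hes1 at 0.22. K27M-AP library 2 was among the 4 highest libraries for 8 members. The other K27M-AP libraries held Notch1 at 369, 259 and 503 CPM, against 288 and 398 CPM in K27M-APP. They held Notch2 at 144, 101 and 253 CPM, against 130 and 199 CPM. Over the other fits run, the log2 fold change ran from -0.98 to -0.12 for Notch1 and from -0.87 to 0.0016 for Notch2. It ran from -1.42 to -0.43 for Dll1 and from -0.99 to -0.30 for Hey1.

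The 2 Pdgfra comparisons share no library. Jag1 and Hes1 were on the higher side in both and Notch2, Notch3, Dll1, Dll3, Hes5, Hey1 and Hey2 on the lower side. Without EV ctl library 4 only Jag1, Hes1 and Hey1 kept these sides in EV-PDGFRA against EV ctl. With the replicate number as a block in that comparison Jag1 (-0.012) and Hes1 (-0.13) were on the lower side and Notch3 (0.64) on the higher one. By the interaction term 0 of the 10 members differed between backgrounds, and 0% of 20197 genes were called (2.45% at an unadjusted p below 0.05, and 6 genes by DESeq2).

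Exchanging wild-type for mutant H3.3 (K27M-AP against WT-AP) gave 0 member calls, where 0.0297% of genes were called. No member separated the groups (2% of all genes did), and the median of the members was 0.14 on the log2 scale (all genes 0.01). The largest difference was Notch2, at 235 ± 153 CPM (n = 4) against 140 ± 72.2 CPM (n = 4), a log2 fold change of 0.74 (SE 0.44) with an edgeR adjusted p of 1.00. Hes5 was at 0.41 (SE 0.85), so that the SE alone spans differences in either direction.

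K27M-APP against EV-PDGFRA had the most calls of any comparison, 1.94% of 20197 genes, and 0 of them were members. These groups differ by the mutant histone, Trp53 loss and the Atrx hairpin together, which cannot be told apart. Notch2, Dll3 and Hey2 were higher and Notch3 lower in every K27M-APP library than in all EV-PDGFRA libraries, 4 of 10 members where 49.6% of all genes separated the groups. Notch2 averaged 165 ± 48.5 CPM against 85.9 ± 20.5 CPM (log2 fold change 0.94, SE 0.56), Dll3 36.5 ± 3.61 against 20.3 ± 2.13 CPM (0.85, SE 0.80), and Notch3 32.7 ± 4.39 against 58.9 ± 12.7 CPM (-0.85, SE 0.67). With the spread taken from these 5 libraries alone, edgeR called Dll3 (adjusted p 0.0164) and Notch3 (adjusted p 0.0458), 2 of 10 members where the same fit called 2264 of 18687 genes, 12.1%; with the spread of all 15 preneoplastic libraries their adjusted p were 0.679 and 0.605.

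**Figure D3:**
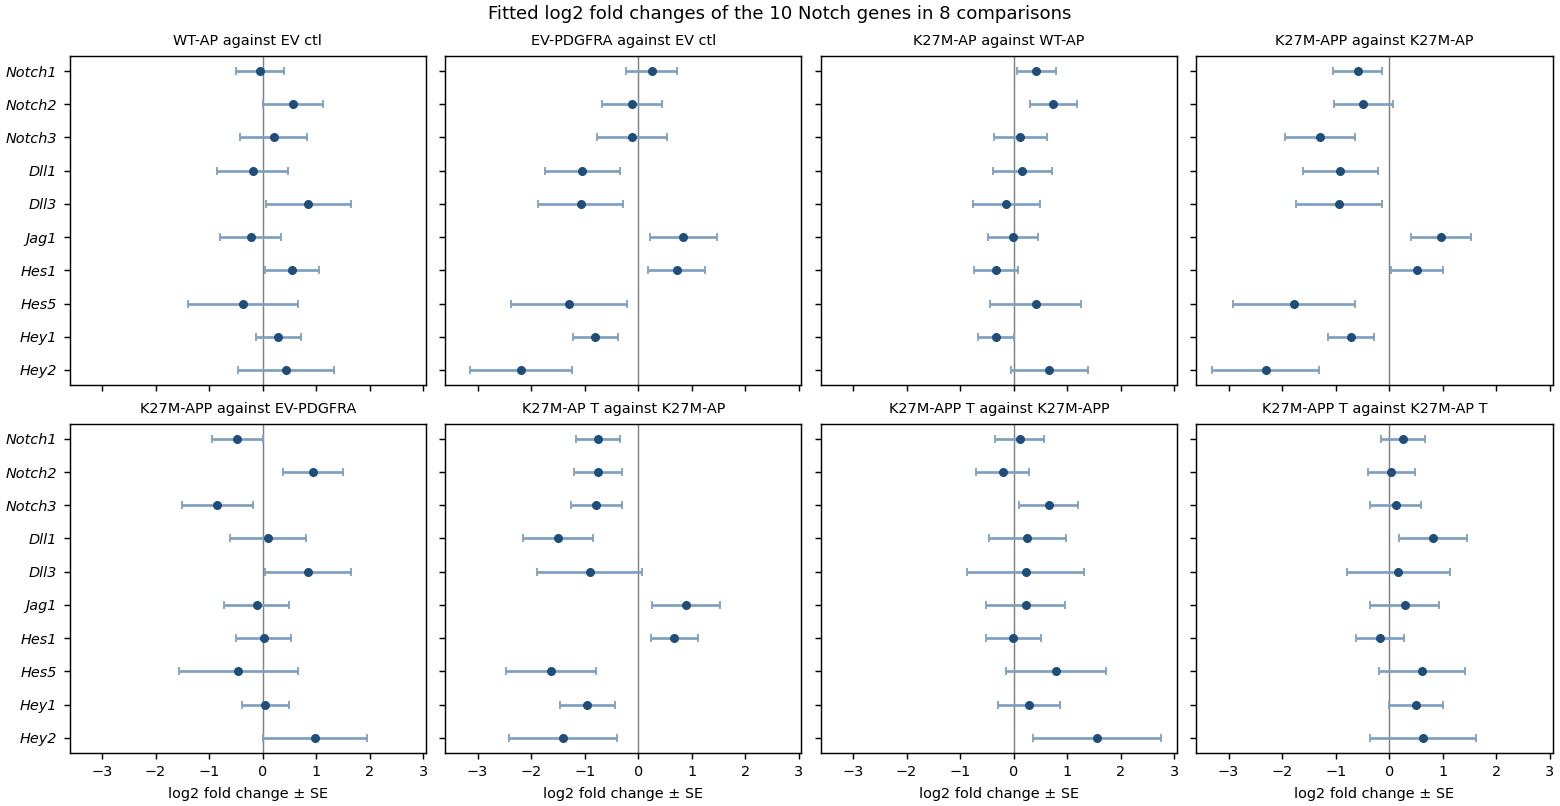
Fitted log2 fold changes of the 10 Notch genes in 8 comparisons of groups, with bars of 1 SE. Jag1 and Hes1 lie to the right of 0 and most other members to the left in EV-PDGFRA against EV ctl, K27M-APP against K27M-AP and K27M-AP T against K27M-AP, and no member passed the test.

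Tumours of the K27M-AP genotype against preneoplastic cells of that genotype (K27M-AP T against K27M-AP) gave 0 member calls, where 0.0245% of 20373 genes were called (12.2% had an unadjusted p below 0.05). Here 2 of 10 members were positive, again Jag1 (0.89, SE 0.64) and Hes1 (0.67, SE 0.44), where 49.9% of all genes were. The median was -0.84 on the log2 scale against 0.00 for all genes. Without K27M-AP library 4, Jag1 was at 0.57, Hes1 at 0.38 and Notch3 at -0.29 in place of -0.78. Dll1 averaged 67.6 ± 50.6 CPM in tumours (n = 3) against 189 ± 117 CPM (n = 4), a log2 fold change of -1.50 (SE 0.65, edgeR adjusted p 0.385). Hes5 was at -1.63 (SE 0.84) and Hey1 at -0.95 (SE 0.51), and both overlapped between groups. Hes1 was the 1 member to separate the groups, at 51.3, 48.8 and 75.5 CPM in tumours against at most 47.3 CPM, where 9.93% of all genes did. Time since delivery and tumour growth cannot be told apart in this comparison. This comparison shares the K27M-AP libraries with K27M-APP against K27M-AP, so the like order of the members in the 2 comparisons is not independent. K27M-AP library 2, among the 4 highest libraries for 8 members, enters both.

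In the K27M-APP genotype (K27M-APP T against K27M-APP) 8 of 10 members were positive, where 55.3% of all genes were. The median of the members was 0.24 (all genes 0.05). None was called, nor was any of 20373 genes (0%; 3.33% at an unadjusted p below 0.05, and 62 genes by DESeq2). Hes5 was higher in each of the 4 tumours, at 64.1 to 171 CPM, than in the 2 preneoplastic libraries at 63.5 and 48.3 CPM, by 0.79 (SE 0.94) on the log2 scale, and 17.3% of all genes separated these groups. The highest preneoplastic and lowest tumour level were nearly the same. The interaction term found 0 of 10 members with a tumour difference that depends on the genotype, with 0% of all genes called (3.55% at an unadjusted p below 0.05, and 2 genes by DESeq2).

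K27M-APP T and K27M-AP T tumours did not differ in any member by the test, and 0% of genes were called (2.67% at an unadjusted p below 0.05, and 11 genes by DESeq2). The members' median was 0.27 (all genes 0.02), with 9 of 10 positive (52.1% of all genes), and 0 members separated the groups against 2.66% of genes. Dll1 was the largest, at 118 ± 69.0 CPM (n = 4) against 67.6 ± 50.6 CPM (n = 3), a log2 fold change of 0.82 (SE 0.64). The single K27M-P T library has no replicate. Its levels of all 10 members lay inside the range of the other 7 tumours.

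What stood out in these genes was the spread between libraries of 1 group. The within-group SD of log2 CPM was 1.52 for Dll3, 1.44 for Hes5, 1.37 for Hey2 and 0.97 for Dll1, whereas the median over the 10760 genes averaging 10 CPM or more was 0.32. Of those genes 99.0% had a smaller SD than Dll3, 98.8% than Hes5 and 94.7% than Dll1. Hey2 averages less than 10 CPM, where low counts widen the SD of log values, and was not ranked. The other 6 members, from Notch1 (0.52) to Jag1 (0.88), lay above 79.6% to 93.0% of genes. Group means took up 19.7% of the variance of Notch1, 22.7% of that of Hes5 and 42.6% of that of Hey1, where the median gene had 36.9%. The means of 8 groups over 23 libraries take up part of the variance even without any group difference. That part was not subtracted, so these shares are not the size of group effects.

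This spread was shared between members. Over the 23 libraries, all 28 pairs among Notch1, Notch2, Notch3, Dll1, Dll3, Hes5, Hey1 and Hey2 had a positive Pearson correlation of log2 CPM, from 0.41 to 0.89 (Spearman 0.24 to 0.87). All 16 pairs of Jag1 or Hes1 with one of these 8 were negative, from -0.68 to -0.24 (Spearman -0.72 to -0.04), and Jag1 and Hes1 correlated with each other at 0.82 (Spearman 0.69). The split into 8 and 2 genes was drawn from these values, so the counts describe it and do not test it. Many other genes correlated with a member as strongly: seen from each gene of the 28 positive pairs, between 27 and 1924 of 9687 other genes averaging 10 CPM or more had a higher correlation with it than its partner did (median 630.5). Seen from each gene of the 16 negative pairs, between 6204 and 9512 of the 9687 genes had a higher correlation with it than its partner did. The lowest of these counts was for Hes1 seen from Notch2, where many other genes were more negative. The points share libraries, depth and cell composition.

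The closest pair was Dll1 and Dll3, at 0.89, and Hes5 correlated with Dll1 at 0.83 and with Notch3 at 0.81. Hes5 and Hes1 correlated at -0.48. With each library taken relative to its group mean (22 libraries, since K27M-P T has 1), the 28 pairs stayed positive (0.45 to 0.90) and the 16 negative (-0.70 to -0.23). In EV ctl and K27M-APP, with 2 libraries each, the deviations mirror each other, so each of these groups adds 1 observation. The signs of all 44 pairs were also the same without EV ctl library 5 and K27M-AP library 4 (0.23 to 0.89 and -0.72 to -0.08), and without the 2 libraries farthest from the median of the first gene of each pair. The libraries fall into 13 that first appear in the earlier of 2 deposited tables and 10 in the later one alone, and the signs were the same within each, from 0.36 to 0.92 and -0.57 to -0.06 in the earlier and from 0.02 to 0.90 and -0.88 to -0.49 in the later.

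In terms of libraries, K27M-AP library 2 was among the 4 highest for all 8 of the first set, and WT-AP library 1 for 6 of them. The share of all genes for which a library is among the 4 highest or lowest is not given here. These counts therefore describe the members and cannot show that the members are unusual. EV ctl library 4, WT-AP library 1 and K27M-AP library 4 were each among the 4 lowest for both Jag1 and Hes1. At the other end, K27M-AP T library 4 and K27M-APP T library 3 were among the 4 highest for Jag1 and Hes1 and among the 4 lowest for 5 of the 8, and EV ctl library 5 was among the 4 lowest for 6. The sets did not always part: the K27M-P T library was among the 4 highest for Jag1 and Hes1 and among the 4 lowest for no member, and K27M-AP T library 1 was among the 4 lowest for Jag1 as well as for Notch1, Dll1 and Hes5. K27M-AP T library 4 had the highest summed progenitor markers (12305 CPM), of which Vim alone made up 9986 CPM. Nes (609 CPM) and Sox2 (284 CPM) were not high there, against 2014 and 469 CPM in their highest libraries. Summed neuron markers were lowest in K27M-APP T library 3 (318 CPM) and stood at 791 CPM in K27M-AP T library 4. They were 1350 CPM in WT-AP library 1 and 1255 CPM in K27M-AP library 2. EV ctl libraries 4 and 5 had 1015 and 936 CPM of neuron markers. Summed oligodendrocyte precursor markers were 3552 and 2305 CPM in EV ctl libraries 4 and 5, 4258 CPM in WT-AP library 1, 3022 CPM in K27M-AP library 2, 1377 CPM in K27M-AP T library 4 and 1870 CPM in K27M-APP T library 3. Summed astrocyte markers were 1270 and 556 CPM in EV ctl libraries 4 and 5, 1150 CPM in WT-AP library 1, 894 CPM in K27M-AP library 2, 476 CPM in K27M-AP T library 4 and 706 CPM in K27M-APP T library 3. The precursor and astrocyte sums were thus higher in EV ctl library 4 and WT-AP library 1 than in EV ctl library 5 and these 2 tumours. Aldoc was the most abundant astrocyte marker, and Gfap did not have this order. Gfap stood at 88.6 and 47.5 CPM in EV ctl libraries 4 and 5 and 12.4 CPM in WT-AP library 1. It was 7.30 CPM in K27M-AP T library 4 and 14.7 CPM in K27M-APP T library 3. The precursor markers Cspg4, Sox10 and Gpr17 did have it. Summed proliferation genes were 1917 and 459 CPM in EV ctl libraries 4 and 5, 165 CPM in K27M-AP library 4, 2530 CPM in K27M-AP library 2, 2072 CPM in WT-AP library 1, 3489 CPM in K27M-AP T library 4 and 3572 CPM in K27M-APP T library 3. The part of cell composition in the shared spread was not tested.

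**Figure D4:**
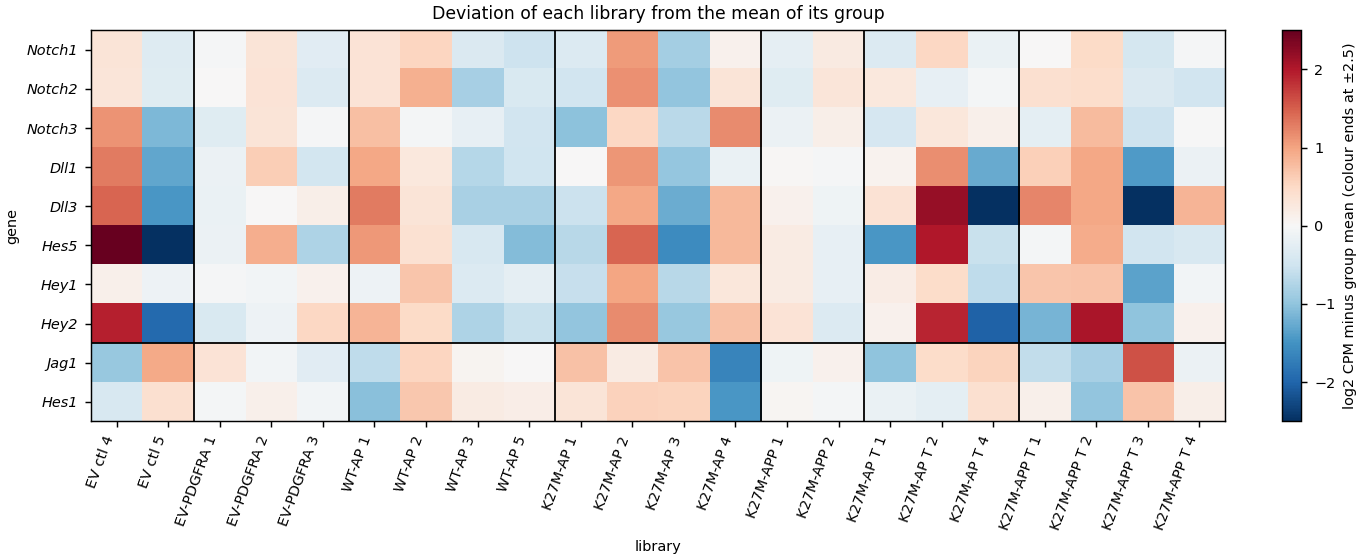
Log2 CPM of each Notch gene in each of 22 libraries minus the mean of its group, with red above and blue below and the colour scale ending at 2.5 either way. Jag1 and Hes1, set apart by a line, are blue in EV ctl library 4, WT-AP library 1 and K27M-AP library 4, where most other members are red, and red in EV ctl library 5 and K27M-APP T library 3, where most others are blue. EV ctl has 2 libraries, so their deviations mirror each other and are 1 observation.

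For each member the 2 genes with the most similar pattern over the 23 libraries were found among the 9687 other genes averaging 10 CPM or more. Dll1 was most like Zkscan5 (Pearson r of log2 CPM 0.96) and Sesn3 (0.93), and Dll3 like Lrrn1 (0.95) and Rap1gap (0.95). Hes5 was most like Ppap2b (0.93) and Peli2 (0.92), and Hey2 like Enpp2 (0.95) and Hexa (0.91). Hes1 was most like Spry1 (0.89) and Spry2 (0.87), and Jag1 like Dis3 (0.85) and Sdc1 (0.83). The closest genes were Tnrc18 (0.86) and Map1a (0.85) for Notch1, Chd7 (0.91) and Kcne1l (0.89) for Notch2, Abhd12 (0.91) and AI464131 (0.90) for Notch3, and Usp19 (0.86) and Galnt16 (0.84) for Hey1. Members were left out of this search. By the same measure 5 of the 9687 genes correlated more strongly with Jag1 than Hes1 did.

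The rest of the pathway was read from 9 lists with 56 genes, of which 53 were tested among preneoplastic groups and 52 in the fit with tumours. Calls came in 1 comparison, K27M-APP against EV-PDGFRA, where 4 of 53 passed the test, 3 higher and 1 lower, against 1.94% of all genes (0.906% higher, 1.03% lower). The 2 ligands Dll4 and Jag2 rose, as did Tle4, a Groucho-family co-repressor that Hes proteins recruit, and Pofut1, which adds the O-fucose that Notch receptors need for ligand binding, fell. In the other 7 comparisons 0 of the pathway genes passed the test.

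Jag2 stood at 4.02 and 2.70 CPM in K27M-APP and at 0.360, 0.472 and 0.455 CPM in EV-PDGFRA, a log2 fold change of 2.96 (SE 0.57, edgeR adjusted p 0.0221). Dll4 stood at 2.16 and 2.86 CPM against 0.270, 0.236 and 0.372 CPM, a log2 fold change of 3.09 (SE 0.61, edgeR adjusted p 0.0245). Both are low-level ligands, and for both the groups were separated by several-fold. Tle4 stood at 177 and 207 CPM against 92.3, 97.5 and 86.0 CPM (log2 fold change 1.06, SE 0.25, edgeR adjusted p 0.049998, just below the threshold). Pofut1 stood at 25.5 and 31.2 CPM against 68.4, 68.0 and 54.5 CPM (log2 fold change -1.16, SE 0.27, edgeR adjusted p 0.0482). In WT-AP, with wild-type H3.3, Dll4 stood at 2.04 to 5.04 CPM and Tle4 at 149 to 206 CPM. Jag2 stood at 0.858 to 2.44 CPM there and Pofut1 at 27.3 to 50.5 CPM. Dll4 was at 1.92 CPM in EV ctl library 4. The Dll4 level of K27M-APP was thus not particular to that group. Each of the 4 calls was lost when any 1 library of either group was left out, with adjusted p of 0.0664 to 0.211 for Jag2, 0.0742 to 0.192 for Dll4, 0.0993 to 0.371 for Tle4 and 0.0814 to 0.407 for Pofut1. Within the libraries of the earlier table the log2 fold changes were 3.00, 3.30, 1.02 and -1.27 for Jag2, Dll4, Tle4 and Pofut1. Summed markers of endothelial cells, known for Dll4, were 13.1 and 13.5 CPM in K27M-APP and 3.31 to 5.39 CPM in EV-PDGFRA. Kdr stood at 4.76 and 7.16 CPM against 1.16 to 2.48 CPM, and Egfl7 at 5.74 and 3.49 CPM against 1.18 to 1.67 CPM. Of the 7 endothelial markers tested, 6 were higher in K27M-APP, with a median log2 fold change of 1.56. Cdh5, Tek, Cldn5 and Esam were below 1 CPM in every library. The part of endothelial cells in the result was not tested.

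**Figure D5:**
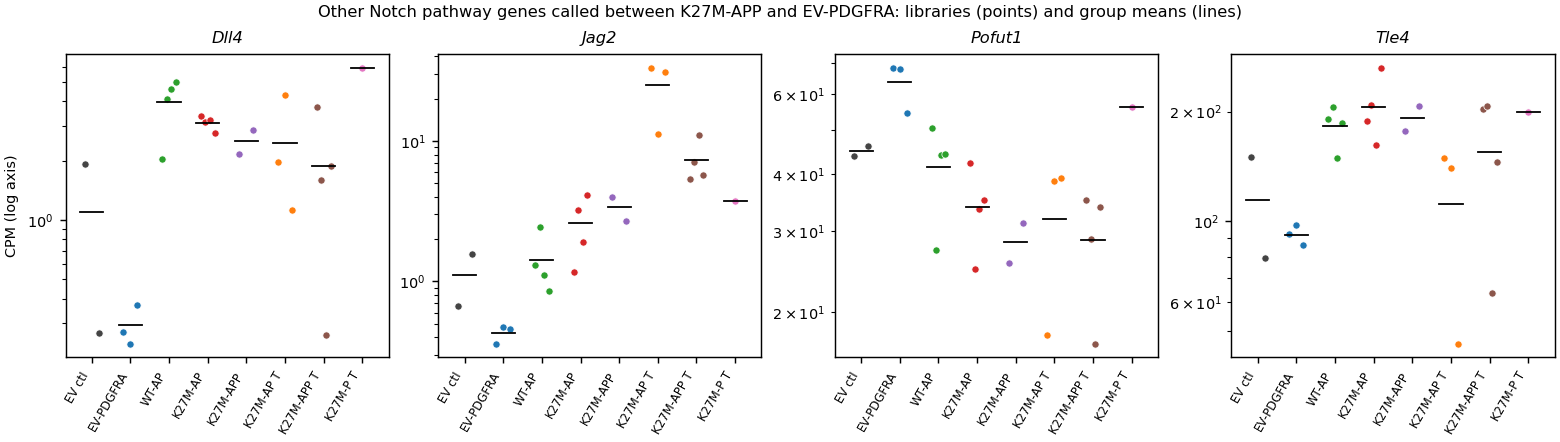
Levels in CPM, on log axes, of the 4 other Notch pathway genes that passed the test between K27M-APP and EV-PDGFRA, with 1 point per library in all 8 groups and the group mean as a line. Dll4 and Jag2 lie below 0.5 CPM in the 3 EV-PDGFRA libraries and above 2 CPM in both K27M-APP libraries.

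Jag2 was also the pathway gene with the largest level in K27M-AP tumours relative to preneoplastic cells: 33.2, 11.3 and 31.1 CPM against 1.17, 3.23, 1.91 and 4.12 CPM, a log2 fold change of 3.26 with an edgeR adjusted p of 0.0606. In K27M-APP T it stood at 5.39 to 11.0 CPM. It was named here after its values were seen, as were Neurog2 and Neurod1, proneural genes that Hes proteins repress. Neurog2 was 0.695 to 10.4 CPM in K27M-AP and at most 0.119 CPM in WT-AP, and Neurod1 0.110 to 2.64 CPM against at most 0.0791 CPM. Both thus separated these groups, where 2% of all genes did. In WT-AP both were near the detection limit, with Neurog2 at 0 CPM in libraries 3 and 5. Neurog2 stood at 1.83 CPM in EV ctl library 4, without the mutant histone, and at 0 CPM in the K27M-P T library, which has it. Neurod1 stood at 0.224 and 0.343 CPM in EV ctl. Neither passed the test (edgeR adjusted p 0.424 and 0.412).

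For 5 lists with no call the most abundant gene is given as a value. Mib1, the ubiquitin ligase that primes ligands, had group means from 212 CPM in K27M-AP T to 355 CPM in K27M-AP. Adam10, the protease that makes the first cut in the receptor, ran from 81.9 CPM in the K27M-P T library to a mean of 173 CPM in EV-PDGFRA. Rbpj ran from a mean of 50.3 CPM in K27M-AP T to 85.4 CPM in K27M-AP. Hes6, a relative of Hes1 that can oppose it, had group means from 75.4 CPM in WT-AP to 183 CPM in K27M-AP T. Itch, a ubiquitin ligase that acts on Notch receptors, was the steadiest of these, with group means from 92.3 CPM in K27M-APP T to 117 CPM in EV ctl. Nrarp, a feedback inhibitor induced by Notch and named here after its values were seen, was 67.4 and 8.74 CPM in the 2 EV ctl libraries, the same order as Hes5.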

How the data were processed

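RNA was measured in 23 mouse libraries. Per the labels' protocols, ribosomal RNA was removed and sequencing was paired-end. Raw gene counts, not normalized, are what the authors deposited, in 2 tables. The submitters' processing notes list the mm10 build with STAR 2.3.0e, featureCounts 1.4.4, Trimmomatic 0.32 and SAMtools 0.1.19. The annotation release and strand setting are not given in the sources used here. The 12 libraries held in both tables had identical counts, and 8 columns of the earlier table that match no sample here were not used.

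Counts were scaled by TMM in edgeR 4.0.16 (R 4.3.3), and levels are CPM of the scaled total, mean ± SD over libraries. Genes passed filterByExpr (minimum count 10, minimum total 15), as did all 10 members. Quasi-likelihood tests with 1 mean per group were fitted to 15 preneoplastic libraries (20197 genes) and to 13 libraries of the K27M groups and their tumours (20373 genes). Benjamini-Hochberg adjustment ran over every gene of a fit, and calls are at adjusted p below 0.05. Correlations and SDs use log2 CPM with a prior count of 2. Coordinates and exon lengths are from GENCODE M21 on GRCm38, matched by identifier for 37607 rows. Alternatives were DESeq2 1.42.0, its size factors, no filter, a replicate block, a term for the table, each table alone, the compared groups alone, all 23 libraries, and each library left out. Leaving out the 2 libraries low in proliferation genes was added after seeing the data. Members and lists were chosen with earlier results of these data known. The scripts were tested on simulated data. Named were the 10 members, pathway genes that were called, the most abundant gene of a list with none called, and the 2 genes most like each member by Pearson correlation (mean of at least 10 CPM, predicted genes left out); other names were chosen after their values were seen. For 1 list with no call the gene this rule names is not reported here.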

Additional observations from a re-analysis of the deposited data

Results flagged for a closer look

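Within groups of 4 libraries, 30 sets of values of the 10 members were checked for 1 library far from the rest, and 2 were found; chance flags about 1 in 20 such sets. Jag1 stood at 180 CPM in K27M-APP T library 3, while the other 3 libraries of the group lay between 33.7 and 54.6 CPM. Hey1 stood at 120 CPM in WT-AP library 2, while the other 3 lay between 58.1 and 67.0 CPM.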

How the results depend on the processing

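Over the 8 comparisons and 2 interaction terms, the count of members called was 0 under every alternative run, except that with the groups compared alone in the fit it was 2 for K27M-APP against EV-PDGFRA (Dll3 and Notch3), where that fit called 2264 of 18687 genes (12.1%). With choices other than leaving out 1 library, 44 of 722 recomputed log2 fold changes had the opposite sign to the value reported, and with 1 library left out 63 of 520 did. All were of members, none of which had passed the test, and the cause was not tested. The only other values recomputed were those of Dll4, Jag2, Pofut1 and Tle4 where they had passed the test. Other pathway genes were not among them. With a term for the table the values of opposite sign were Notch1 -0.26 in EV-PDGFRA against EV ctl, Dll3 0.013 in K27M-AP against WT-AP, Dll1 -0.24, Hes1 -0.052 and Hey1 -0.10 in K27M-APP against EV-PDGFRA, Notch2 0.044 and Jag1 -0.20 in K27M-APP T against K27M-APP. In libraries of the earlier table alone the values of opposite sign were Notch3 -0.52 and Jag1 0.21 in K27M-AP against WT-AP, Dll1 -0.12 and Hes1 -0.025 in K27M-APP against EV-PDGFRA, Notch2 0.15 and Jag1 -0.85 in K27M-APP T against K27M-APP, Jag1 -0.55 in K27M-APP T against K27M-AP T. In libraries of the later table alone the values of opposite sign were Notch2 -0.17, Notch3 -0.21, Dll3 -0.24, Hey1 -0.056 and Hey2 -0.41 in WT-AP against EV ctl, Dll3 0.80 in K27M-AP against WT-AP. Without EV ctl library 5 and K27M-AP library 4 the values of opposite sign were Notch3 -0.52, Jag1 1.02 and Hey2 -0.50 in WT-AP against EV ctl, Notch1 -0.028 in EV-PDGFRA against EV ctl, Notch3 -0.38 and Jag1 0.30 in K27M-AP against WT-AP. With all 23 libraries in the fit the values of opposite sign were Hes1 0.0073 in K27M-APP T against K27M-APP. Same-numbered libraries of 2 groups did not deviate together in every pair (correlations of deviations from the group means -0.20, 0.46 and 0.58 for K27M-AP and WT-AP, 0.26, 0.084 and 0.0068 for K27M-AP T and K27M-AP, and 0.26, 0.38 and -0.016 for K27M-APP T and K27M-AP T), so the number was not taken as a pairing; 2 or 3 of 3 libraries per group correlated best with their own number, a hint from the data only. With the replicate number as a block 0 members were called in every comparison. Under the block the values of opposite sign were Dll1 0.040, Hes1 -0.30 and Hes5 1.38 in WT-AP against EV ctl, Notch1 -0.027, Notch3 0.64, Jag1 -0.012 and Hes1 -0.13 in EV-PDGFRA against EV ctl, Notch3 -0.62, Dll1 -0.30, Jag1 0.27, Hes5 -0.77 and Hey2 -0.13 in K27M-AP against WT-AP, Dll1 -0.27 and Hey1 -0.094 in K27M-APP against EV-PDGFRA, Notch2 0.15 and Jag1 -0.37 in K27M-APP T against K27M-APP, Jag1 -0.38 in K27M-APP T against K27M-AP T. Over the fits without 1 library, the lowest and highest values of members whose sign turned were as follows. For WT-AP against EV ctl the ranges were -0.34 to 0.30 for Notch1, -0.53 to 1.71 for Notch3, -0.98 to 1.62 for Dll1, -0.89 to 1.01 for Jag1, -1.34 to 3.86 for Hes5, -0.0073 to 0.42 for Hey1 and -0.51 to 3.69 for Hey2. For EV-PDGFRA against EV ctl the ranges were -0.061 to 0.60 for Notch1, -0.42 to 0.20 for Notch2, -0.87 to 1.39 for Notch3, -1.85 to 0.76 for Dll1, -1.93 to 1.03 for Dll3, -2.28 to 2.94 for Hes5 and -3.14 to 1.08 for Hey2. For K27M-AP against WT-AP the ranges were -0.027 to 0.64 for Notch1, -0.37 to 0.44 for Notch3, -0.31 to 0.57 for Dll1, -0.43 to 0.46 for Dll3, -0.23 to 0.30 for Jag1 and -0.13 to 0.87 for Hes5. For K27M-APP against K27M-AP the ranges were -0.82 to 0.0016 for Notch2. For K27M-APP against EV-PDGFRA the ranges were -0.12 to 0.46 for Dll1, -0.26 to 0.082 for Jag1, -0.036 to 0.078 for Hes1, -0.77 to 0.14 for Hes5 and -0.17 to 0.24 for Hey1. For K27M-APP T against K27M-APP the ranges were -0.11 to 0.34 for Notch1, -0.48 to 0.11 for Notch2, -0.092 to 0.54 for Dll1, -0.068 to 0.60 for Dll3, -0.64 to 0.47 for Jag1 and -0.28 to 0.23 for Hes1. For K27M-APP T against K27M-AP T the ranges were -0.11 to 0.19 for Notch2, -0.21 to 0.27 for Notch3, -0.37 to 1.61 for Dll3, -0.58 to 0.53 for Jag1, -0.45 to 0.062 for Hes1 and -0.60 to 2.04 for Hey2. Leaving out a library of EV ctl or K27M-APP leaves 1, which is assumed to vary like the other groups. Calls over all genes moved more: K27M-APP against EV-PDGFRA had 392, with 44 to 2264 over the alternatives (DESeq2 1371, replicate block 601), WT-AP against EV ctl 63, with 2 to 448, K27M-AP against WT-AP 6, with 0 to 64, and K27M-AP T against K27M-AP 5, with 0 to 578. Comparisons without a value from a table alone lacked 2 libraries of a group there. With all 23 libraries in the fit Dll4, Pofut1 and Tle4 were not called (edgeR adjusted p 0.0756, 0.139 and 0.303). Pofut1 was also not called without a filter on low counts, with the block, with a term for the table or in the earlier table alone (edgeR adjusted p 0.0547 to 0.0913), nor Tle4 without a filter or with the table term (0.0596 and 0.0663). Depth limits Hey2 most, whose lowest count was 6.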
